A study of Mus musculus with 9 samples.

Results

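The genes described here are those of the unfolded protein response and the chaperones of the endoplasmic reticulum (ER), chosen by name from their textbook roles. Earlier results of these data were known when they were chosen. The shares of members called below are therefore not independent of the data. The list holds 31 genes, of which 29 were measured, out of 19505 genes in all. The other 2, Manf and Pdia4, were not analysed here. RNA came from 9 samples of 3LL cells with a GFP label, also known as Lewis lung carcinoma, a transplantable mouse lung tumour line of the C57/BL6 strain. In 3 samples the cells had grown for 7 days as a monolayer in culture dishes. In 3 they had been placed under the skin and in 3 in the lung, and after 7 days the cells carrying GFP were recovered. All 9 samples thus share the line and its GFP label, and each group has 3 arrays. The series names the lung model with a prefix, BLM, that it does not spell out. Whether the replicates of a group stem from different animals or dishes is not stated in the labels, so each p-value reflects only the spread between the arrays, and that spread may be technical.

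Proteins that enter the secretory pathway fold in the ER with the help of chaperones of the HSP70 and HSP90 families, lectin chaperones that hold glycoproteins, and protein disulfide isomerases. When unfolded proteins build up, the sensors ATF6, IRE1alpha (encoded by Ern1) and PERK (encoded by Eif2ak3) start the unfolded protein response: ATF6 is cut to a transcription factor, IRE1alpha splices the mRNA of Xbp1, and PERK phosphorylates eIF2alpha and so slows translation. ATF6 and spliced XBP1 are known to raise the transcription of ER chaperone genes and of factors for ER-associated degradation (ERAD), through promoter elements that include the ER stress response element, ERSE.

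Levels are log2 signals on a 1-colour array, as mean ± SD over the 3 arrays of a group, and a difference is a log2 fold change. The term called, like rose and fell, is used of a gene with an adjusted p under 0.05 in limma's two-sided test, with Benjamini-Hochberg adjustment over the 19505 genes. Each measured member was read by 1 array feature, and levels of different genes are not set against each other. Background was read from the 90th percentile of the negative control features, 7.20 to 7.73 on the log2 scale, and 28.0% to 34.4% of the genes lay above it on an array. By that measure 25 of the 29 members were above background on at least 3 arrays, while Eif2ak3, Ppp1r15a, Sel1l and Derl3 were not above it on any array. In these bulk samples, fewer cells of a type and less RNA per cell cannot be told apart. The 3 comparisons share their samples pairwise, so a gene high in 1 group enters 2 of them.

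Several array measures moved with the groups, and their part in the results was not tested except where a value is given. The upper quartile over all genes was 8.55 to 8.68 on the lung arrays against 8.20 to 8.49 on the others, and the bacterial hybridization controls averaged 10.95 to 11.58 on the lung arrays, 12.73 to 12.96 on the subcutaneous arrays and 11.86 to 12.16 on the dish arrays. Lung replicates 1 and 2 stood apart from lung replicate 3 in the mean level of 46 measured genes with very long mRNAs, 9.16 and 9.37 against 7.89, which was 7.39 to 7.91 on the dish and subcutaneous arrays. Markers of alveolar type II cells moved with the lung: 6 of the 10 in the list, Sftpc, Sftpa1, Sftpb and Cxcl15 among them, were above background on at least 1 lung array, and the log2 of their summed signal was 14.81 to 16.57 in lung samples, 13.01 to 13.21 in subcutaneous samples and 13.38 to 13.66 in dish samples. Of these, Abca3 and Etv5 were also above background in dish and subcutaneous samples. Sftpc, which defines these secretory cells, was below background on every dish and subcutaneous array. The summed signal of airway secretory markers moved with the lung too, its log2 8.60 to 14.90 against 7.49 to 7.96 in the other groups. Of these 7 markers 4 were above background on at least 1 lung array, and 1 on all 3. In lung against subcutaneous samples 2 of the 7 were called higher. Scgb1a1 read 6.31, 9.83 and 13.68 on lung replicates 1, 2 and 3. Alveolar type I markers had 9.63 to 10.21 in the lung, 8.09 to 9.25 under the skin and 7.66 to 7.96 in the dish. Of 5 measured, 3 were above background on any lung array. Monocyte and macrophage markers had 9.32 to 10.98, 8.94 to 9.56 and 8.75 to 9.46, with Mrc1 and Lyz2 above background on lung arrays alone. Of the 8 measured, 3 were above background on any lung array, and Cd14 alone in the other groups. Fibroblast markers moved with the subcutaneous samples, with a log2 summed signal of 16.47 to 17.25 against 10.71 to 13.96 in the lung and 8.10 to 8.32 in the dish, and 3 of the 7 measured, Dcn, Lum and Dpt, were above background on all 3 subcutaneous arrays. Of 7 measured B cell and plasma cell markers, cells in which the unfolded protein response is normally high, 0 were above background on any array, and the same held for 6 endothelial and 5 neutrophil markers.

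Promoter sequence is described first here, because it groups the members by a feature that the array does not measure. RefSeq promoters of mouse assembly GRCm38.p6, spanning 250 bases before to 50 bases after a gene's start, were found for 25 of the 29 members, and Hyou1, Atf6, Ppp1r15b and Derl1 had none here. The ERSE was searched as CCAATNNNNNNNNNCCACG, the shorter ERSE-II as ATTGGNCCACG and the core of the unfolded protein response element (UPRE) as TGACGTGG, each on both strands. The letters CCACG are common to the first and second, and the UPRE core read on the other strand begins with them too. An ERSE match stood in the promoters of 9 of the 25 members (36.0%), against 37 of 27025 genes with a promoter (0.137%). The 37 include these 9. The list was chosen by roles in the response that this element serves, so the excess is not an independent result. These members were Hspa5, Hsp90b1, Dnajc3, Creld2, Calr, Canx, Pdia6, Syvn1 and Derl3. ERSE-II was found in Dnajb11 and Herpud1, and in 0.0444% of all genes, and the UPRE core in Dnajc25, and in 0.714% of all genes. No member held more than 1 of the 3 motifs, and the promoters of the other 13 members searched held none of these letters. Such a match is a description of the sequence and not a site of binding. For 4 members whose levels are described at length below, the 250 bases before the start are printed 5′ to 3′ along the gene's strand, with ERSE matches in capitals on whichever strand they lie. They show 1 match in Hspa5, Creld2 and Canx and 2 in Hsp90b1.
Hspa5, chr2:34771840-34772089, plus strand: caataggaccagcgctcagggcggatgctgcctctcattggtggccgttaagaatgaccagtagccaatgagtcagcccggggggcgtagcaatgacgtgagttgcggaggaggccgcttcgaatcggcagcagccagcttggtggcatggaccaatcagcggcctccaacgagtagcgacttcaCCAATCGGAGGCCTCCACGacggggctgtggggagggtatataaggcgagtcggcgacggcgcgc
Hsp90b1, chr10:86705445-86705694, minus strand: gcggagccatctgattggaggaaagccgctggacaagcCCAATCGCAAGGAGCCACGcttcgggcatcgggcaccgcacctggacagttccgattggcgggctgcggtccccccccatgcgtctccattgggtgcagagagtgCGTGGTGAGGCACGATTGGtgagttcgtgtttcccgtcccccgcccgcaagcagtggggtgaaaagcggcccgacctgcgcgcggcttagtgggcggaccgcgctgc
Creld2, chr15:88819396-88819645, plus strand: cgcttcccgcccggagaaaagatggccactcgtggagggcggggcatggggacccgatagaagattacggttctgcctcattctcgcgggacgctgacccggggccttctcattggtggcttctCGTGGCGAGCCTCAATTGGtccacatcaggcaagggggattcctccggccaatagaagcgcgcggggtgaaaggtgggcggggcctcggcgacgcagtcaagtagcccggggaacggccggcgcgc
Canx, chr11:50325674-50325923, minus strand: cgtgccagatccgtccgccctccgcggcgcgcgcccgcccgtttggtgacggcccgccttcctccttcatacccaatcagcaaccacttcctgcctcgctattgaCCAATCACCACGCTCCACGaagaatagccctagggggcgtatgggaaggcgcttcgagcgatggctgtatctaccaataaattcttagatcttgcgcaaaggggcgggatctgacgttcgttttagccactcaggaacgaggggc
In Hspa5 the match ended 47 bases before the start, in Creld2 108 and in Canx 127, and the matches of Hsp90b1 ended 194 and 89 bases before it.

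The other matches are shown with 20 bases on each side, to let their spacers be compared. The first 5 are ERSE, Herpud1 holds ERSE-II and Dnajc25 the UPRE core.
Dnajc3, chr14:118937807-118937865, plus strand: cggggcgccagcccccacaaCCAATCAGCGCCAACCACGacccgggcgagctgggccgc
Syvn1, chr19:6046512-6046570, plus strand: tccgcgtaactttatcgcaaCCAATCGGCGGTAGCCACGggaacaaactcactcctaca
Calr, chr8:84847055-84847113, minus strand: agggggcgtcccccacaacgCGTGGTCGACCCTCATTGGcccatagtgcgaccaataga
Pdia6, chr12:17266471-17266529, plus strand: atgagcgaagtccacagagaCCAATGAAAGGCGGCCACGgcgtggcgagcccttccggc
Derl3, chr10:75893222-75893280, plus strand: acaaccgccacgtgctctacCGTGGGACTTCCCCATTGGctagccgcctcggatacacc
Herpud1, chr8:94386357-94386407, plus strand: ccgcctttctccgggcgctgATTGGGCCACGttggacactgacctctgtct
Dnajc25, chr4:59003124-59003171, plus strand: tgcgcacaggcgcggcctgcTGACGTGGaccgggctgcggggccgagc
The ERSE-II match of Dnajb11 lay 8 to 18 bases after the start and is printed without flanks.
Dnajb11, chr16:22857852-22857862, plus strand: ATTGGCCCACG
Between the fixed ends of the ERSE, the 9 variable bases were different in each of the 10 matches in members, and held more than 4 G or C bases in all 10.

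The comparison of lung with subcutaneous samples, the contrast the series title names, asks which genes differ between the samples recovered from these sites. Markers of other cell types also differed between them, as given above. Chaperones of the HSP70 and HSP90 systems were higher in the lung: 8 of the 10 measured rose (Hspa5, Hsp90b1, Hyou1, Dnajb11, Dnajc3, Dnajc25, Sdf2l1 and Creld2), with a median difference of 1.39 over the 10, while Dnajb9 fell and Dnajc10 was not called. Calnexin, the disulfide isomerase Pdia3 and the sensor gene Atf6 fell, and in ERAD the ligase gene Syvn1 and the channel gene Derl1 rose. Over all 29 members 10 rose, where 9.21% of the 19505 genes were called higher, and 4 fell, where 5.79% were called lower, so that 14 changed against 15.0% of all genes. Among the 6667 genes above background on at least 3 arrays the shares were larger, 21.3% higher and 10.2% lower. Of the 25 such members 40.0% were called higher and 16.0% lower. The median difference of the 29 members was 0.64, against -0.07 over all genes. For 13 members all 3 lung values lay above all 3 subcutaneous values, against 15.8% of all genes, and for 6 they lay below, against 16.8%.

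**Figure D1:**
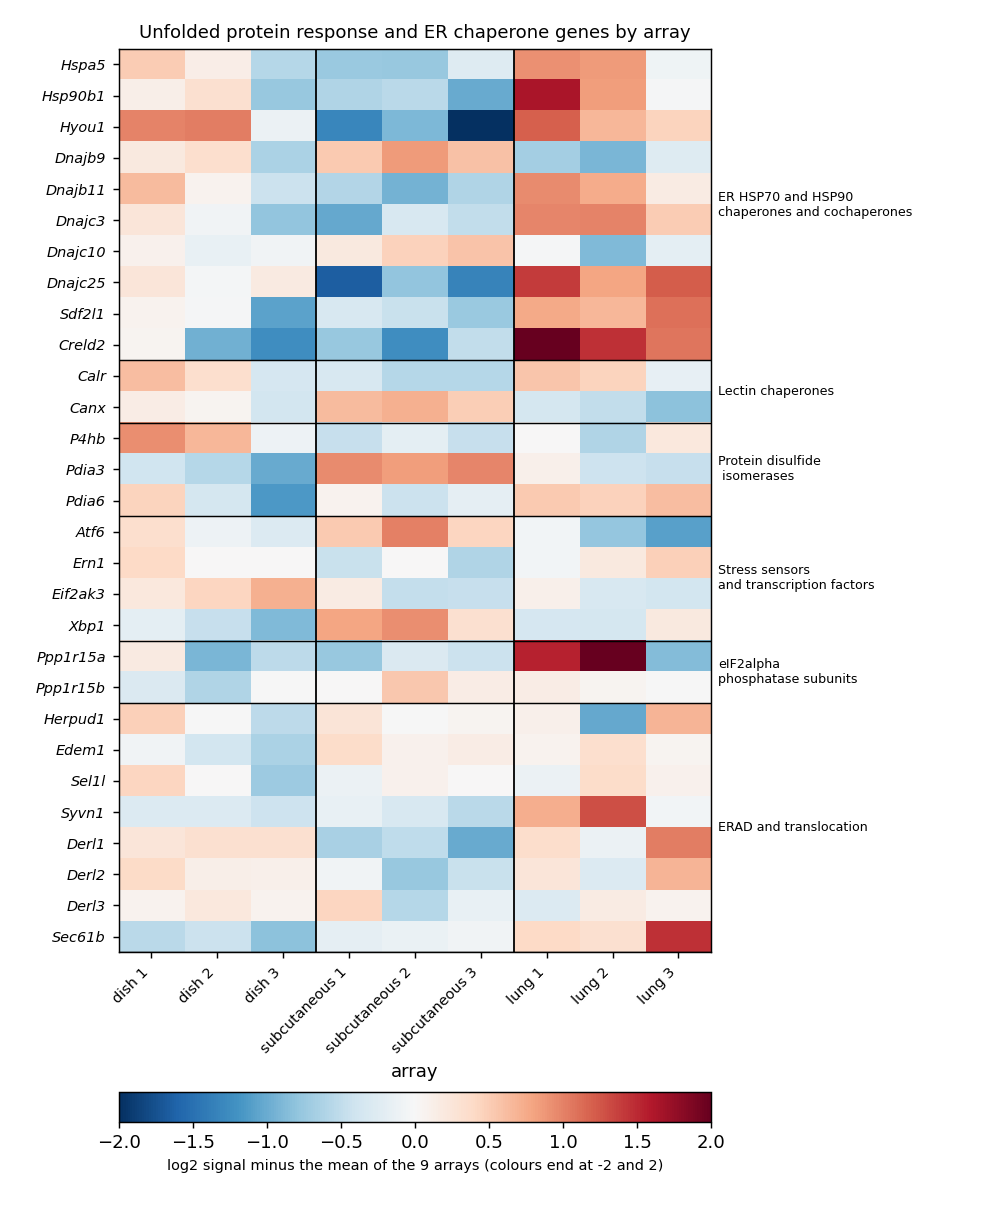
Log2 signal of the 29 measured genes (rows, grouped by role) on each of the 9 arrays (columns), shown as the difference from the gene's mean over the 9 arrays, with colours ending at -2 and 2. Most chaperone rows are red on the lung arrays and blue on the subcutaneous arrays, with Dnajb9, Canx, Pdia3, Atf6 and Xbp1 reddest under the skin.

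How the arrays are scaled bears on these counts. Shifting every array to a common upper quartile moved the median difference of all genes by -0.31 for lung against subcutaneous and by -0.34 for lung against dish, and changed the split of all called genes from 1797 higher and 1130 lower to 1124 higher and 2936 lower. Under that scaling 7 members were called higher and 6 lower in the lung, and under quantile normalization 8 and 6, against 10 and 4 as deposited. Hsp90b1, Hyou1, Dnajb11, Dnajc3, Dnajc25, Sdf2l1 and Creld2 were called higher, and Dnajb9, Canx, Pdia3 and Atf6 lower, under all 3 scalings. Without lung replicate 1 the count of higher members was 5. With the mean level of the very long mRNAs as a covariate it was 3 (Dnajc25, Derl1 and Sec61b), and the count of lower members was 2 (Canx and Atf6).

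Among the chaperones, Creld2, an ER protein with EGF-like repeats that is induced by ER stress, read 13.13, 12.47 and 12.08 on the lung arrays. On the subcutaneous arrays it read 10.25, 9.77 and 10.52, and on the dish arrays 11.07, 10.06 and 9.78. All 3 lung values stood above every value of the other groups, whose ranges overlapped each other. The lung against subcutaneous difference was 2.38 (SE 0.36, adjusted p = 0.00115), a 5.20-fold change, and against the dish it was 2.25 (SE 0.36, adjusted p = 0.00338). The subcutaneous and dish groups differed by -0.12 (95% interval -0.91 to 0.66). With the long mRNA level as a covariate the differences were 1.83 and 1.58 and were not called (adjusted p = 0.0719 and 0.258).

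Its neighbour on chromosome 15, Alg12, a mannosyltransferase gene of N-glycan assembly that is not a member of the list, runs the other way from a start 328 bases off, and its promoter holds the same ERSE match. It was named for that sequence. Alg12 read 7.29, 7.26 and 6.80 on the lung arrays and 6.37, 6.47 and 5.90 on the subcutaneous arrays, none of the latter above background. It was near background in the lung too, where the levels were 7.20, 7.23 and 7.36, and replicate 3 was below. No dish array was above background. It was called higher in the lung (adjusted p = 0.0361), with no size given because the subcutaneous side is background. It was not called under quantile normalization or a common upper quartile (adjusted p = 0.0725 and 0.121), nor without subcutaneous replicates 1 or 3 or lung replicates 1 or 2 (0.0543 to 0.138). The call was also lost with the long mRNA level (adjusted p = 0.545) or RNA integrity (0.0567) as a covariate. The same held with an intensity trend and robust prior (0.0543) and with only the groups compared (0.0607).

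Hspa5 encodes BiP, the HSP70 of the ER lumen that also holds the stress sensors inactive. It read 13.37, 13.30 and 12.37 on the lung arrays, 11.71, 11.70 and 12.20 on the subcutaneous arrays and 12.96, 12.59 and 11.88 on the dish arrays. Lung and subcutaneous values did not overlap, but lung replicate 3 stood only 0.16 above subcutaneous replicate 3, and the dish values spanned the gap. The difference between lung and subcutaneous samples was 1.14 (SE 0.34, adjusted p = 0.0383), and the lung against dish difference of 0.54 was not called (95% interval -0.20 to 1.27). The first call was lost without any 1 of 5 arrays: lung replicates 1 or 2, subcutaneous replicates 1 or 2, or dish replicate 2 (adjusted p = 0.0552 to 0.153). With the long mRNA level as a covariate the difference was 0.38 (adjusted p = 0.738), and with a common upper quartile it was 0.83 (adjusted p = 0.0784).

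Hsp90b1 encodes GRP94, the HSP90 of the ER. Its lung values of 16.43, 15.64 and 14.78 lay above the subcutaneous values of 14.20, 14.25 and 13.79. The dish arrays read 14.92, 15.12 and 14.04, between the others and overlapping both. Lung exceeded subcutaneous by 1.54 (SE 0.39, adjusted p = 0.0185), while lung against dish (0.93, adjusted p = 0.183) and subcutaneous against dish (-0.61, adjusted p = 0.367) were not called. The call was lost without subcutaneous replicate 3 and without lung replicate 1 or 2 (adjusted p = 0.0545 to 0.0904), and the difference was 0.64 (adjusted p = 0.567) with the long mRNA covariate.

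Hyou1 encodes the large ER HSP70 relative that exchanges nucleotide on BiP. It was lowest under the skin: 7.74, 8.15 and 7.05 on the subcutaneous arrays, against 10.24, 9.72 and 9.50 in the lung and 10.05, 10.08 and 8.93 in the dish. Of the 3 subcutaneous arrays 2 were above background, and replicate 3 was not. The lung and dish values overlapped, and their difference was 0.14 (95% interval -0.65 to 0.92). Subcutaneous samples were lower than lung samples by a difference of 2.17 (lung against subcutaneous, SE 0.36, adjusted p = 0.00198) and lower than dish samples by -2.04 (subcutaneous against dish, SE 0.36, adjusted p = 0.00236). The subcutaneous against dish call was kept in each of the 19 alternative settings tried, and the lung against subcutaneous call was lost only with the long mRNA covariate (1.71, adjusted p = 0.0963).

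Genes of J-domain cochaperones, which hand substrates to BiP and start its ATPase cycle, went both ways. Dnajc25, a J-domain family member of the ER, read 9.86, 9.26 and 9.67 on the lung arrays, 6.82, 7.68 and 7.13 on the subcutaneous arrays and 8.70, 8.42 and 8.65 on the dish arrays. The 3 groups did not overlap, with lung highest and subcutaneous lowest, and 1 of the 3 subcutaneous arrays was above background. Lung exceeded subcutaneous by 2.39 (SE 0.27, adjusted p = 0.000236), a 5.24-fold change, and exceeded dish by 1.01 (SE 0.27, adjusted p = 0.0437). Subcutaneous against dish was -1.38 (SE 0.27, adjusted p = 0.00442). The calls against the subcutaneous samples were kept in all 19 settings, while the call against the dish was lost without any 1 of the 6 lung and dish arrays (adjusted p = 0.0515 to 0.170).

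Dnajc3, the cochaperone also known as an inhibitor of PERK, read 9.49, 9.51 and 9.03 in the lung, 7.49, 8.20 and 8.03 under the skin and 8.76, 8.45 and 7.73 in the dish. All 3 lung values stood above the rest. The difference from subcutaneous samples was 1.43 (SE 0.30, adjusted p = 0.00734), and that from dish samples, 1.03, was not called (adjusted p = 0.0611). Dnajb11, a soluble cochaperone of BiP, was near background everywhere, at 7.78, 7.58 and 7.00 in the lung, 6.24, 5.89 and 6.23 under the skin and 7.46, 6.91 and 6.40 in the dish. It was called higher in lung than in subcutaneous samples (adjusted p = 0.0111), but no subcutaneous array was above background and the lung mean was no higher than the background level there, so no size is given, and the call was lost without lung replicate 1 (adjusted p = 0.0593).

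Dnajb9, a cochaperone that targets BiP to IRE1alpha and to ERAD substrates, had the opposite order. It read 11.93, 11.70 and 12.35 on the lung arrays, below the subcutaneous values of 13.14, 13.47 and 13.20, and 12.81, 12.95 and 11.98 on the dish arrays. The highest lung and the lowest subcutaneous value were 0.79 apart, and the dish values reached into the lung range. The difference was -1.28 for lung against subcutaneous (SE 0.29, adjusted p = 0.0111). Dnajc10, a cochaperone that reduces disulfides during ERAD, was 10.40 ± 0.46 in lung, 11.18 ± 0.19 in subcutaneous and 10.72 ± 0.11 in dish samples (SD, n = 3 each). Its difference of -0.78 between lung and subcutaneous samples was not called (adjusted p = 0.0660), but was called under both other scalings.

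Sdf2l1, a partner of Dnajb11 in the BiP complex, read 12.07, 11.97 and 12.42 on the lung arrays, 11.00, 10.87 and 10.57 on the subcutaneous arrays and 11.39, 11.29 and 10.24 on the dish arrays. Lung values were the highest, with replicate 3 above the others, unlike the pattern of Hspa5 and Hsp90b1. The lung samples exceeded the subcutaneous ones by 1.34 (SE 0.31, adjusted p = 0.0114) and the dish ones by 1.18 (SE 0.31, adjusted p = 0.0374). The call against the dish was lost without dish replicate 2 or 3, and without each lung array in turn (adjusted p = 0.0682 to 0.125), and under both other scalings.

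**Figure D2:**
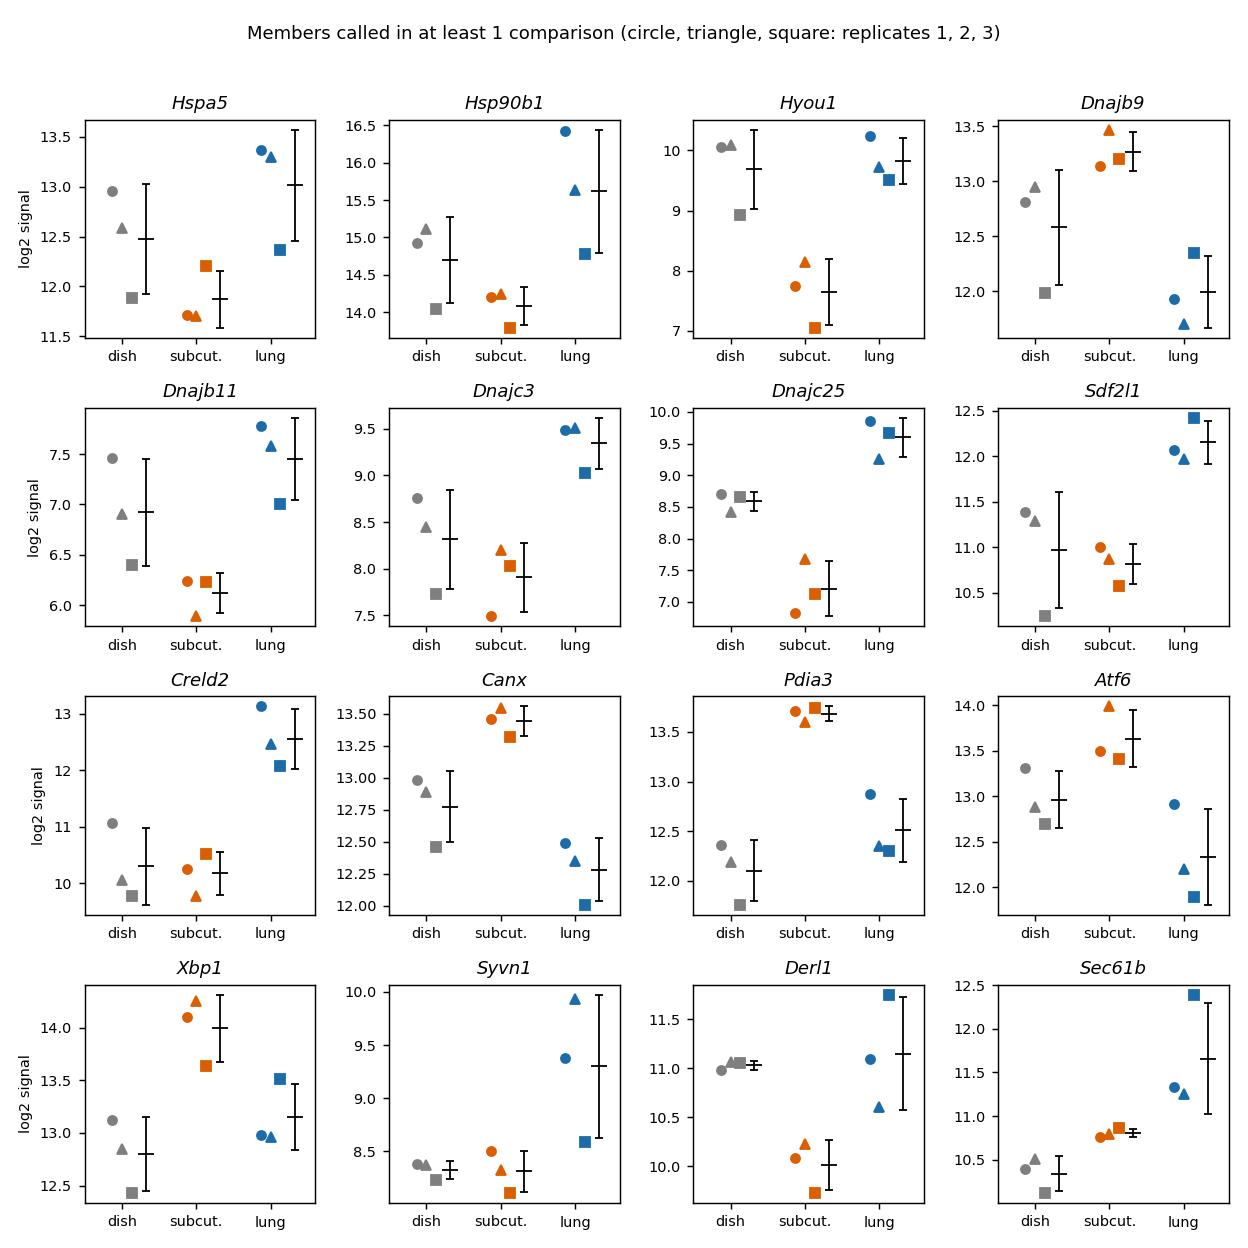
Log2 signal (vertical axes, each with its own range that does not start at 0) of the 16 genes called in at least 1 comparison, on the dish, subcutaneous and lung arrays. Points are single arrays, circle, triangle and square standing for replicates 1, 2 and 3, and bars are mean ± SD (n = 3). Creld2, Dnajc3 and Sdf2l1 are above both other groups in the lung, Hyou1 and Derl1 are low under the skin, and Pdia3 and Xbp1 are high there.

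The lectin chaperones, calnexin in the ER membrane and calreticulin in its lumen, bind the same glycans but did not share a pattern. Canx, the calnexin gene, read 12.49, 12.35 and 12.01 in the lung, 13.46, 13.55 and 13.32 under the skin and 12.98, 12.89 and 12.46 in the dish. It was highest in every subcutaneous sample, and lung and dish values overlapped. Lung against subcutaneous was -1.16 (SE 0.24, adjusted p = 0.00677), a call kept in all 19 settings. The lung against dish difference was -0.49 (adjusted p = 0.261), called only with a common upper quartile. Calr, the calreticulin gene, was 12.71 ± 0.39 in lung, 11.94 ± 0.14 in subcutaneous and 12.63 ± 0.49 in dish samples, and its lung against subcutaneous difference of 0.77 (95% interval 0.14 to 1.40) was not called (adjusted p = 0.0953). No test of the difference between the 2 genes was made.

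Of the disulfide isomerases, Pdia3, the ERp57 gene whose product works with both lectin chaperones and in the MHC class I loading complex, changed. It read 13.71, 13.60 and 13.74 under the skin, 12.87, 12.35 and 12.30 in the lung and 12.36, 12.19 and 11.76 in the dish. Every subcutaneous value stood above all others, by at least 0.72 over the lung and 1.24 over the dish, and lung and dish overlapped. The differences were -1.18 for lung against subcutaneous (SE 0.25, adjusted p = 0.00784) and 1.58 for subcutaneous against dish (SE 0.25, adjusted p = 0.00111), the latter kept in all 19 settings. P4hb, the gene of protein disulfide isomerase itself, was 14.73 ± 0.42 in lung, 14.48 ± 0.15 in subcutaneous and 15.35 ± 0.53 in dish samples, with no call (subcutaneous against dish -0.87, adjusted p = 0.0819). Pdia6, which acts with BiP, was 10.98 ± 0.07 in lung, 10.27 ± 0.25 in subcutaneous and 10.09 ± 0.80 in dish samples. Its lung values stood above both other groups, by as little as 0.39 over the subcutaneous and 0.02 over the dish values. The differences of 0.71 (adjusted p = 0.182) and 0.89 (adjusted p = 0.141) were not called.

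Among the sensors and transcription factors, the genes with a call were highest under the skin. Atf6 read 12.92, 12.20 and 11.89 in the lung, 13.50, 13.99 and 13.41 under the skin and 13.31, 12.88 and 12.70 in the dish. Lung and subcutaneous values did not overlap, and the dish values, below the subcutaneous ones, reached into the lung range. The difference was -1.30 (SE 0.30, adjusted p = 0.0123), called in all 19 settings. Xbp1 read 14.10, 14.25 and 13.64 under the skin, 12.98, 12.96 and 13.51 in the lung and 13.12, 12.85 and 12.43 in the dish. Subcutaneous values were above all others, though by only 0.13 between subcutaneous replicate 3 and lung replicate 3. Xbp1 rose in subcutaneous against dish samples by 1.20 (SE 0.28, adjusted p = 0.0113), a call lost without dish replicate 3 (adjusted p = 0.0545). Lung against subcutaneous was -0.85 (adjusted p = 0.0552), not called as deposited and called in 7 of the 19 settings, both other scalings among them. The feature gives 1 level for Xbp1, and splicing was not measured here.

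The sensor genes Ern1 and Eif2ak3 had no call. Ern1, for IRE1alpha, was 8.70 ± 0.26 in lung, 8.14 ± 0.32 in subcutaneous and 8.63 ± 0.23 in dish samples. The largest of its differences was 0.55 between lung and subcutaneous samples (adjusted p = 0.171). Eif2ak3, for PERK, was not above background on any array, at 6.50 ± 0.26, 6.44 ± 0.37 and 7.14 ± 0.25 in lung, subcutaneous and dish samples. The subunits that direct the phosphatase to eIF2alpha and so end the PERK signal had no call either. Ppp1r15a, the inducible GADD34 subunit, was below background on every array, and lung replicates 1 and 2 (6.66 and 7.21) stood apart from lung replicate 3 (4.26), with 4.63 ± 0.24 in subcutaneous and 4.70 ± 0.55 in dish samples. Ppp1r15b, the constitutive subunit, was 11.05 ± 0.07 in lung, 11.22 ± 0.28 in subcutaneous and 10.69 ± 0.30 in dish samples.

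ERAD draws misfolded proteins back to the cytosol for the proteasome. Of 8 members in this group, 2 rose in lung against subcutaneous samples, Syvn1 and Derl1. The 8 include the translocon subunit Sec61b, which was not called there. Syvn1, the HRD1 ubiquitin ligase gene, read 9.38, 9.93 and 8.59 in the lung, 8.50, 8.33 and 8.11 under the skin and 8.38, 8.37 and 8.23 in the dish. The lung values were highest, but lung replicate 3 stood 0.09 above subcutaneous replicate 1. The difference of 0.99 (SE 0.31, adjusted p = 0.0463) was lost without any array other than lung replicate 3 (adjusted p = 0.0602 to 0.187) and under both other scalings. Derl1, for a channel protein of the same complex, read 11.09, 10.61 and 11.75 in the lung, 10.09, 10.23 and 9.73 under the skin and 10.98, 11.06 and 11.05 in the dish. Subcutaneous values were below all others. Lung exceeded subcutaneous by 1.13 (SE 0.29, adjusted p = 0.0195), and subcutaneous against dish was -1.01 (SE 0.29, adjusted p = 0.0357). The first call was lost without subcutaneous replicate 3 and without lung replicate 1 or 3 (adjusted p = 0.0594 to 0.0709) and under both other scalings. The second was lost without any array other than lung replicates 2 and 3 (adjusted p = 0.0524 to 0.113).

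Sec61b, a subunit of the channel through which new proteins enter the ER, read 11.33, 11.25 and 12.39 in the lung, 10.76, 10.80 and 10.86 under the skin and 10.39, 10.51 and 10.12 in the dish. The 3 groups did not overlap, and lung replicate 3 was far above the other lung values. Lung against dish was 1.32 (SE 0.30, adjusted p = 0.0192), a call lost without dish replicate 2 or 3 (adjusted p = 0.0566 to 0.0773) and under both other scalings, and lung against subcutaneous was 0.85 (adjusted p = 0.0738). The remaining ERAD genes had no call in any comparison. Herpud1, which assembles the ERAD complex and is a classical stress target, was 10.76 ± 0.87 in lung, 10.94 ± 0.15 in subcutaneous and 10.82 ± 0.50 in dish samples. Edem1, which helps to pick out misfolded glycoproteins, was 10.60 ± 0.16, 10.64 ± 0.15 and 10.08 ± 0.27 in the same order. Derl2 was 11.42 ± 0.48, 10.78 ± 0.35 and 11.41 ± 0.16. Sel1l, the partner of HRD1, at 6.30 ± 0.24, 6.17 ± 0.10 and 6.09 ± 0.58, and Derl3, at 4.84 ± 0.23, 4.76 ± 0.51 and 4.97 ± 0.08, were below background throughout.

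Against the dish, the lung samples had higher Creld2, Sdf2l1, Dnajc25 and Sec61b. These 4 rises among 29 members stand beside 4.81% of all genes called higher. Among the 25 members above background on at least 3 arrays they were 16.0%, beside 11.4% of all such genes. No member fell, where 1.97% of all genes and 3.49% of those brighter genes did, so 4 of 29 changed against 6.78% of all genes. In limma's test 11 members had an unadjusted p under 0.05, as did 4271 of the 19505 genes. Of the 11 members only Eif2ak3 was lower. Both Eif2ak3 and Ppp1r15a, which was higher, were below background on every array. The median member difference was 0.35, against -0.07 for all genes. For 9 members the lung values were all above the dish values (13.4% of all genes), and for 1 all below (15.0%). Under quantile normalization Creld2 was the 1 member called. With a common upper quartile Creld2 was higher and Canx, Atf6 and Eif2ak3 lower, and the split of all called genes turned from 938 higher and 384 lower to 565 and 1787. The count of 4 fell to 1 without dish replicate 2 or dish replicate 3, and to 2 without lung replicate 1 or lung replicate 2.

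Subcutaneous against dish, 2 members rose, Pdia3 and Xbp1, and 3 fell, Hyou1, Dnajc25 and Derl1. The background was 6.41% of genes called higher and 6.47% lower, or 12.9% in all, and 29.4% of the genes above background on at least 3 arrays were called. The 5 members of 29, or 17.2%, stand beside the 12.9% of all genes. Of the 25 members above background on at least 3 arrays 5 were called, a smaller share than the 29.4%. The median difference was -0.12 over the members and -0.01 over all genes. Subcutaneous values lay wholly above dish values for 9 members (14.2% of all genes) and wholly below for 7 (15.1%). The same 5 members were called under all 3 scalings. Without dish replicate 3 the count of higher members was 1. In the dish group, replicate 3 held the lowest of the 3 values for 21 of the 29 members and replicate 1 the highest for 21. Over the 6667 genes above background on at least 3 arrays those shares were 46.3% and 58.8%.

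**Figure D3:**
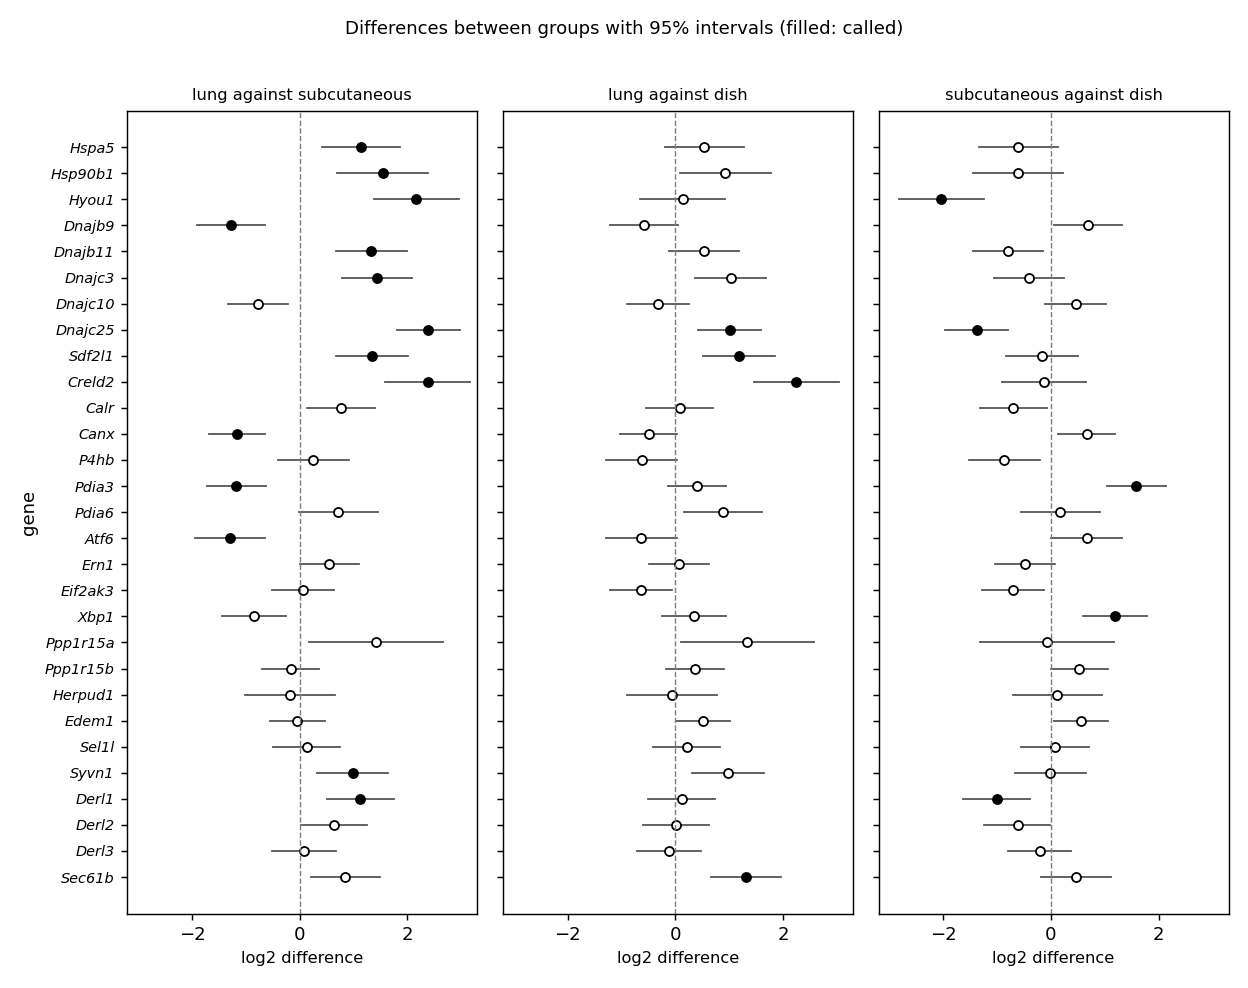
Log2 differences (horizontal axes) with 95% intervals for the 29 measured genes, with 1 panel for each pair of groups (first minus second group named). Filled points are called genes, 14, 4 and 5 in that order, and Dnajc25, Creld2 and Hyou1 lie farthest to the right in the first panel, at 2.39, 2.38 and 2.17.

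Grouped by promoter sequence, the 9 members with an ERSE match had 5 rises (Hspa5, Hsp90b1, Dnajc3, Creld2 and Syvn1) and 1 fall (Canx) in lung against subcutaneous samples, and Calr, Pdia6 and Derl3 were not called. Over all genes 9.21% were called higher and 5.79% lower in that comparison. The differences of these 9 members ran from -1.16 to 2.38, with a median of 0.99. Canx was the lowest of them and Creld2 the highest. Of 28 other genes with an ERSE match in their promoter 19 were measured, and 1 rose, Alg12, and 1 fell, the prostaglandin receptor gene Ptgdr2 (adjusted p = 0.0266), with a median of -0.02. Ptgdr2 was below background on all 9 arrays, so no size is given. Its call was lost without subcutaneous replicates 2 or 3, and without each lung array in turn (adjusted p = 0.0510 to 0.0978). Ero1b, another of the 19, was also below background on all 9 arrays. How many of the 19 were above background was not counted, so their median cannot be compared with that of the members. Against the dish, 1 of the 9 members rose (Creld2) and 0 fell in limma's test, and subcutaneous against dish samples had no call among them. Members without any of the 3 motifs also changed, among them Sdf2l1, Pdia3 and Dnajb9.

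The rest of the secretory pathway was read through 160 further genes in 7 lists, of which 153 were measured. In lung against subcutaneous samples 21 rose and 10 fell, in lung against dish samples 13 and 3, and in subcutaneous against dish samples 20 and 22. Their median differences were 0.16, 0.11 and 0.07. Set against the background shares, 21 of 153 is above the 9.21% of all genes called higher. It is below the 21.3% of genes above background on at least 3 arrays, but the 153 were not filtered on level. The shares called lower in that comparison were 5.79% of all genes and 10.2% of those brighter genes. For lung against dish they were 4.81% higher and 1.97% lower (11.4% and 3.49% of the brighter genes). For subcutaneous against dish they were 6.41% and 6.47% (14.5% and 14.9%). The counts of each list below stand beside the same shares. With a common upper quartile the counts for lung against subcutaneous were 15 rises and 30 falls, for lung against dish 10 and 16, and for subcutaneous against dish 19 and 24. Under quantile normalization they were 16 and 19, 11 and 7, and 22 and 22. With the mean level of the very long mRNAs as a covariate they were 5 rises and 6 falls for lung against subcutaneous, 1 and 0 for lung against dish, and 21 and 25 for subcutaneous against dish. Without lung replicate 1, 13 rose and 3 fell in lung against subcutaneous samples and 5 rose and 1 fell in lung against dish samples, and without dish replicate 2, 11 rose in subcutaneous against dish samples. For each list, the called genes with the largest rise and fall are named.

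Among 11 subunits of the oligosaccharyltransferase, which attaches N-glycans to new proteins, 4 rose and 0 fell in lung against subcutaneous samples, and 1 rose and 5 fell in subcutaneous against dish samples, with medians of 0.50 and -0.41. Rpn1, for ribophorin I, read 12.24, 11.99 and 11.92 in the lung, 9.90, 10.12 and 9.83 under the skin and 12.73, 12.36 and 11.76 in the dish. It was low in every subcutaneous sample, like Hyou1. The differences were 2.10 for lung against subcutaneous (SE 0.27, adjusted p = 0.000428) and -2.33 for subcutaneous against dish (SE 0.27, adjusted p = 0.000124). Tusc3, an oxidoreductase subunit, rose in subcutaneous against dish samples by 0.73 (adjusted p = 0.0406), a call lost without any array other than lung replicate 3 (adjusted p = 0.0527 to 0.125). In lung against dish samples 0 of the 11 subunits were called.

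Of 24 genes for transport from the ER to the Golgi and for KDEL receptors, which return chaperones to the ER, 7 rose and 2 fell in lung against subcutaneous samples, 4 rose in lung against dish samples and 3 fell in subcutaneous against dish samples. The medians were 0.55, 0.34 and -0.02. Sec24d, a cargo adaptor of the COPII coat, read 10.05, 9.55 and 10.11 in the lung, 7.92, 7.94 and 7.12 under the skin and 8.50, 8.32 and 8.67 in the dish. It was highest in every lung sample, and 2 of the 3 subcutaneous arrays were above background. Its differences were 2.24 against subcutaneous samples (adjusted p = 0.000351) and 1.41 against dish samples (adjusted p = 0.0100). The latter call was lost without dish replicate 2 or lung replicate 1 (adjusted p = 0.0508 to 0.0551). Sar1b, the COPII GTPase gene, fell in lung against subcutaneous samples by 1.03 (adjusted p = 0.0227), a call lost without subcutaneous replicates 2 or 3 or lung replicates 1 or 3 (adjusted p = 0.0541 to 0.0854). Lman2, a cargo lectin gene, was lower under the skin than in the dish, with a difference of -1.90 (adjusted p = 0.00159).

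Among 38 other folding factors, 6 rose and 2 fell in lung against subcutaneous samples, 3 rose and 1 fell in lung against dish samples, and 9 rose and 6 fell in subcutaneous against dish samples. Fkbp11, a prolyl isomerase gene, had 14.26, 13.66 and 13.36 in the lung, 12.28, 11.74 and 11.52 under the skin and 13.60, 13.50 and 13.46 in the dish. It was lowest under the skin, with differences of 1.91 for lung against subcutaneous (adjusted p = 0.000958) and -1.67 for subcutaneous against dish (adjusted p = 0.00165). Sil1, like Hyou1 a nucleotide exchange factor of BiP, had the opposite order. It read 7.84, 7.97 and 7.98 in the lung and 9.44, 9.45 and 9.44 under the skin, a difference of -1.51 (SE 0.22, adjusted p = 0.000962). In subcutaneous against dish samples Sil1 rose by 2.06 (adjusted p = 7.81e-05), with 1 of the 3 dish arrays above background. Fkbp7 rose as well (adjusted p = 0.00309), by at least 0.69 on the log2 scale, since no dish array was above background. Such a bound is the distance of the brighter group's mean from the average background level on the arrays of the dimmer group. In lung against dish samples Tmx2, a thioredoxin-related membrane protein gene, fell by 1.80 (adjusted p = 0.00131), and Uggt2, of the glucosyltransferase family that tags unfolded glycoproteins, rose by at least 0.25, with no dish array above background (adjusted p = 0.0192, lost without dish replicate 2 or 3 or lung replicate 1 at 0.0758 to 0.0992).

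Of 22 other ERAD genes, 2 rose and 2 fell in lung against subcutaneous samples, 1 rose in lung against dish samples and 4 rose in subcutaneous against dish samples. Selenos, a selenoprotein of the ERAD complex, rose by 1.73 in lung against subcutaneous samples (adjusted p = 0.00405). Herpud2, a relative of Herpud1, fell by 1.26 in the same comparison (adjusted p = 0.0102, but 0.0563 without lung replicate 1) and rose by 1.82 in subcutaneous against dish samples (adjusted p = 0.000963). Ubxn4, which recruits the p97 ATPase to the ER, rose by 1.40 in lung against dish samples (adjusted p = 0.00610). Of 24 genes of the translocon, signal recognition and signal peptidase, 1 rose and 1 fell in lung against subcutaneous samples, 2 rose in lung against dish samples, and 2 rose and 5 fell in subcutaneous against dish samples. The first pair was Ssr1 (0.91, adjusted p = 0.0175) and Srp72 (-0.86, adjusted p = 0.0488). The call of Ssr1 was lost without subcutaneous replicate 3 or lung replicates 1 or 2 (adjusted p = 0.0531 to 0.0666), and that of Srp72 without any 1 of the 9 arrays (0.0541 to 0.153). Srp19, for a subunit of the signal recognition particle, rose by 1.36 in lung against dish samples (adjusted p = 0.00674). In subcutaneous against dish samples Tram2, of the translocating chain family, rose by 1.59 (adjusted p = 0.000710), and Srprb, for a subunit of the particle's receptor, fell by 1.54 (adjusted p = 0.00306).

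Among 16 other sensors and regulators of ER stress, 1 rose and 2 fell in lung against subcutaneous samples, 2 rose in lung against dish samples and 1 rose in subcutaneous against dish samples. Creb3l2, an ER-membrane transcription factor related to ATF6 in mode of activation, had 12.19, 12.18 and 11.71 in the lung, 11.11, 10.36 and 10.35 under the skin and 10.92, 10.64 and 9.67 in the dish. Its lung values stood above the rest, with mean differences of 1.42 from subcutaneous samples (adjusted p = 0.0132) and 1.61 from dish samples (adjusted p = 0.0129). Without lung replicate 1 neither was called, with adjusted p-values of 0.0588 and 0.0594, and without dish replicate 3 the second was not (0.0527). Its relative Creb3 fell by 1.07 in lung against subcutaneous samples (adjusted p = 0.0165, lost without subcutaneous replicate 2 or lung replicate 3 at 0.0520 to 0.0579). Wfs1, for the ER membrane protein wolframin, rose by at least 0.35 in subcutaneous against dish samples, with no dish array above background (adjusted p = 0.0198), a call lost without replicates 1 or 2 of either group (adjusted p = 0.0695 to 0.0839).

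Of 18 targets and effectors of the PERK and ATF4 arm, 0 rose and 1 fell in lung against subcutaneous samples in limma's test, 1 rose and 2 fell in lung against dish samples, and 3 rose and 3 fell in subcutaneous against dish samples. The fall in the first comparison was that of Nupr1, a stress-induced chromatin protein gene, with 13.06, 13.42 and 12.65 in the lung against 14.70, 14.71 and 14.52 under the skin (-1.60, adjusted p = 0.00142). In lung against dish samples Tnfrsf10b, for the death receptor DR5, rose by at least 0.90, with no dish array above background (adjusted p = 0.00267), and Trib3, an ATF4 target, fell by 1.22 (adjusted p = 0.00954, but 0.0531 without lung replicate 1). Atf3, a transcription factor gene of the stress response, read 10.23, 9.98 and 10.71 under the skin and 8.30, 8.03 and 7.05 in the dish. This was a rise of 2.51 (SE 0.39, adjusted p = 0.000838), with dish replicate 3 below its background level of 7.59. Sesn2 was called lower in that comparison (adjusted p = 0.0160), but it was below background on all 9 arrays, so no size is given, and the call was lost without dish replicate 1 or subcutaneous replicates 1 or 2 (0.0536 to 0.0714).

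**Figure D4:**
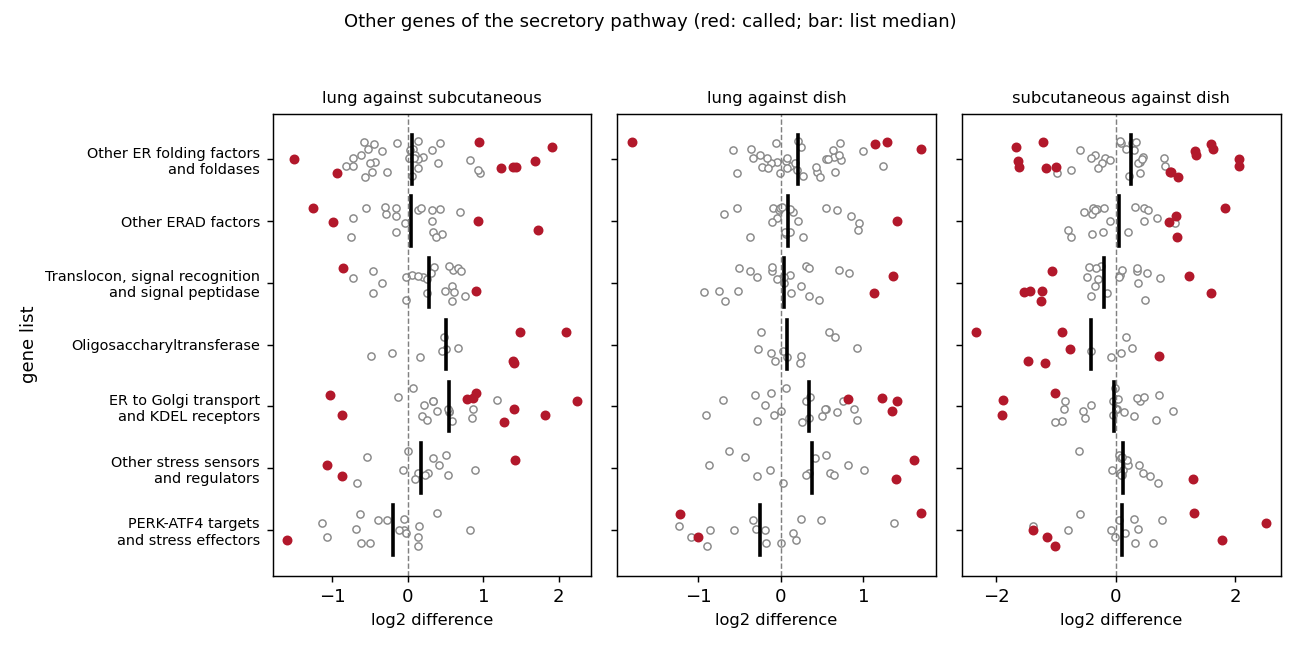
Log2 differences (horizontal axes) of 153 further secretory pathway genes in 7 lists (rows), with 1 panel for each pair of groups. Red points are called genes, grey circles are the others and black bars are list medians, which reach 0.55 for ER to Golgi transport in the first panel and -0.41 for the oligosaccharyltransferase in the third.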

How the data were processed

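Total RNA from 9 samples, 3 in each of 3 groups, was read on a 1-colour whole-transcript array, with RNA integrity numbers of 7.50 to 8.60, per the labels. The values are log2 signals in a single table of 28846 rows that the authors deposited, and they were used unchanged. How the authors normalized them, and with which software and build, is not given in the sources used here. The table holds no detection calls.

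A platform annotation gave 19572 of 22206 gene features 1 symbol. For 55 genes with several features the one with the highest mean was kept, leaving 19505 genes with no filter on level. The listed genes' symbols were looked up by gene number in a RefSeq table of GRCm38.p6 (183 features matched, 0 changed). limma 3.58.1 in R 4.3.3 (lmFit, eBayes without trend) fitted 3 group means to all 9 arrays (residual degrees of freedom 6, prior 7.08). The procedure was tested on simulated data. Where no array of a group exceeded its own 90th percentile of negative controls, the gene was taken as not well above background in that group. The precision is limited by 3 arrays per group.

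The members, roles and further lists were chosen with earlier results of these data known. By rule, all measured members were named, those called in any comparison with every value, and of each further list the called genes with the largest rise and fall; Alg12 and Ptgdr2 were named for the promoter motif. Groups and replicate numbers came from the sample titles. The replicate numbers were not treated as pairs. Deviations from group means of same-numbered arrays correlated at -0.06 to 0.09 over all genes. Most of these genes were below background, so the correlations cannot exclude a factor shared by same-numbered arrays.

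Alternatives were quantile normalization, a common upper quartile, a filter on dim genes, array weights, an intensity trend with a robust prior, RNA integrity or the long mRNA level as a covariate, the mean of a gene's features, a replicate block, only the groups compared, and leaving out each array.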

Additional observations from a re-analysis of the deposited data

How the results depend on the processing

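Of the 19 alternatives, none reversed the sign of a member called in either fit. The mean of features could not change a member's values, since each was read by 1 feature. Leaving out an array of the group not compared changed only the estimate of the spread and not the difference. The calls kept in all of them were Dnajc25, Canx and Atf6 for lung against subcutaneous samples, none for lung against dish, and Hyou1, Dnajc25 and Pdia3 for subcutaneous against dish. Members higher in lung than in subcutaneous samples numbered 10, 3 with the long mRNA covariate and 5 to 11 when 1 array was left out; members lower there numbered 4, 2 with that covariate and 4 to 5 when 1 array was left out. For lung against dish, 4 higher members became 1 under quantile normalization, 1 with a common upper quartile, 9 with array weights, 2 with RNA integrity and 1 with the long mRNA level as a covariate, and 1 to 5 when 1 array was left out, while 0 lower members became 3 with a common upper quartile. For subcutaneous against dish, 2 higher members became 1 with RNA integrity as a covariate and 1 to 2 when 1 array was left out, and 3 lower members 2 to 3. With the replicate block the counts were 10 and 4, 3 and 0, and 2 and 2. It changed the calls of Dnajc25 in lung against dish and Derl1 in subcutaneous against dish samples only. Whether the numbers pair the samples is not known. Apart from the scalings, whose shift is given above, the cause was not tested. With 3 arrays in a group, and with 4 members below background on all arrays, a p above the threshold does not show that levels are alike.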
